A study of Mus musculus with 14 samples.

Results

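The H3K27ac islands of 81K1 mouse embryonic stem cells were compared between untreated control cells and cells in which Smarcb1 had been knocked down (Smarcb1 kd). All islands on chromosomes 1 to 19 and X were taken, 38737 from the control list and 50700 from the kd list, together 89437 of the 352805 regions that the 10 lists of the experiment hold on these chromosomes. The 81K1 line carries, at the Rosa26 locus of OG2 stem cells, an shRNA against Smarcb1 that is transcribed only in the presence of doxycycline. It is a single clone, both groups carry the construct, and all cells grew on gelatine in medium with serum and LIF. Control cells received no doxycycline and kd cells received 1 µg/ml for 72 h, and the ChIP-seq libraries include no doxycycline-treated cells without the shRNA. Each antibody was sequenced in 1 library per condition, so replicate error is not known and the conditions could not be tested against each other. The 95% intervals of shares are Wilson intervals, which cover counting error only. Islands carry no read counts. The depth that each library reached and its enrichment are therefore not known, and a larger number of islands in kd cannot be told apart from a library that was read more deeply or enriched better. Values that compare islands with each other inside a list are given beside each count for that reason.

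H3K27ac is the acetylation of lysine 27 of histone H3. It is placed mainly by the acetyltransferases Ep300 and Crebbp, removed by histone deacetylases, and found at active promoters and enhancers, where it excludes methylation of the same lysine by Polycomb repressive complex 2 (PRC2). Smarcb1 is a core subunit of the BAF complex, which moves nucleosomes with the energy of ATP hydrolysis by Smarca4, its ATPase in stem cells. BAF complexes bind promoters and enhancers of embryonic stem cells, including those of the pluripotency factors.

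Over 21755 protein-coding genes with 1 transcription start site (TSS) each, an island within 1 kb of the TSS was present in kd alone at 3685 promoters (gained, 16.9%) and in control alone at 402 (lost, 1.85%). The 300 bases that start 250 upstream of the TSS are printed for 3 gained, 1 kept and 2 lost promoters to show the range of CpG content, from the GRCm38 sequence, 5′ to 3′ on the strand of the gene, with CpG in capitals. They are Cdt1 (chr8:122567765-122568064), Tbl1x (chrX:77510763-77511062) and Klf4 (chr4:55532417-55532716) for gain, Nanog (chr6:122707239-122707538) for a kept island, and Cobl (chr11:12464911-12465210) and Lpar6 (chr14:73237645-73237944) for loss.
Cdt1: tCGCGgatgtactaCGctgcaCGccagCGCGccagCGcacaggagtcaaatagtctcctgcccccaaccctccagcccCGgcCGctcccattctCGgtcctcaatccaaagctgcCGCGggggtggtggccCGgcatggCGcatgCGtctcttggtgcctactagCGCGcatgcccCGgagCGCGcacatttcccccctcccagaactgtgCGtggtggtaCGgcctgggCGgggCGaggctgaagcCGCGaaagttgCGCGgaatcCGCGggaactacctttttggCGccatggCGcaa
Tbl1x: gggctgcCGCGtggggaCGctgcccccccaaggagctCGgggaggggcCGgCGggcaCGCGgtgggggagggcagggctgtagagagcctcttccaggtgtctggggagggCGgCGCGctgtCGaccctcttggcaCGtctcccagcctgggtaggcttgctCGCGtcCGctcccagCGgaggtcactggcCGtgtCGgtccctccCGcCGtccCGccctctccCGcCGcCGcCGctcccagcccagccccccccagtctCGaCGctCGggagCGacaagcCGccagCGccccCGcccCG
Klf4: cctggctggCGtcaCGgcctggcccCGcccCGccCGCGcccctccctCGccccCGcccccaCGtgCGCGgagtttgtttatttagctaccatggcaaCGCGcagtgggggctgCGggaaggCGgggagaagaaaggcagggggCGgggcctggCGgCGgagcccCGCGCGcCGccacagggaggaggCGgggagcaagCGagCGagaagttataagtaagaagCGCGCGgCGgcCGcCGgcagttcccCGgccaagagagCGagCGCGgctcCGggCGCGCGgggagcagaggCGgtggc
Nanog: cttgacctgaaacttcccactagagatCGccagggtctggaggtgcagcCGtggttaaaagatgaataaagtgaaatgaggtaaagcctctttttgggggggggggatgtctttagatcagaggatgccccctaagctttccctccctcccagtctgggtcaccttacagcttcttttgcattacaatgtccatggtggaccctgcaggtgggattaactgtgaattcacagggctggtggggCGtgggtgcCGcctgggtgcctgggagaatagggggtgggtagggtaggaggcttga
Cobl: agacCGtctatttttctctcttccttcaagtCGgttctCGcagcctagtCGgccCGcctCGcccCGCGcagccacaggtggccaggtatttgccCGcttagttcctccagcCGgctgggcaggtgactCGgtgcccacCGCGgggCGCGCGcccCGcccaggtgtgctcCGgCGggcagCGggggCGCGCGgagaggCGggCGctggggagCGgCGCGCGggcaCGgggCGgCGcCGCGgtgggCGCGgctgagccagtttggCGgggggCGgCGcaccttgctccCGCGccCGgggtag
Lpar6: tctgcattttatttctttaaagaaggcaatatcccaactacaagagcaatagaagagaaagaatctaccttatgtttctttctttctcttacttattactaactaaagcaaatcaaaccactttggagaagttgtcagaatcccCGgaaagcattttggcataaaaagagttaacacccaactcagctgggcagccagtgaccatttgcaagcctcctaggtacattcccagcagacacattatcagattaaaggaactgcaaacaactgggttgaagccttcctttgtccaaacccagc
These windows hold 32, 34, 40, 4, 42 and 1 CpG.

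Relative to the control list, the number of islands differed most within 1 kb of a TSS, here of any of 53843 annotated genes, whereas more islands were added by number in gene bodies and between genes. TSS islands numbered 4580 in control, 11.8% of the list (interval 11.5 to 12.1%), and 8022 in kd, 15.8% of the list (15.5 to 16.1%). Islands in gene bodies numbered 11875 and 16388, and intergenic islands 22282 and 26290. The islands that were already there were mostly found again when an overlap of 1 bp was enough. Under the alternatives the shared part of control islands fell as low as 43.4% in gene bodies and 41.0% between genes. Of the control islands, 85.5% at a TSS, 70.3% in gene bodies and 77.7% between genes overlapped a kd island. Read from the kd list, 49.9% of the TSS islands, 52.7% of those in gene bodies and 67.1% of those between genes had a counterpart in control. The promoter islands thus kept the highest share of the control list and also contained 4019 islands of kd alone, against 664 of control alone.

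**Figure D1:**
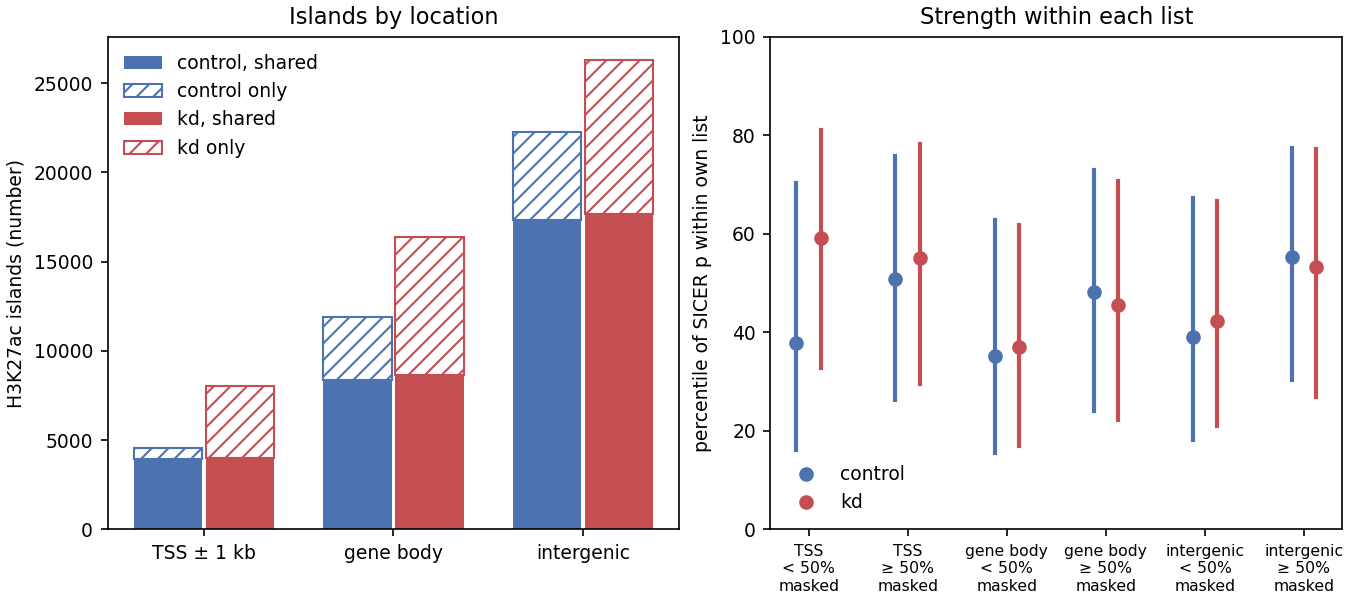
Left, number of H3K27ac islands by location in control (blue) and Smarcb1 kd (red), filled where the island overlaps one of the other condition and hatched where it does not. Right, median (point) and quartiles (line) of the percentile that an island's SICER p-value takes in its own list (100 is the strongest island), by location and by the share of repeat-masked bases. TSS islands with little repeat sequence stand at a median of 37.8 in control and 59.1 in kd, while masked intergenic islands stand at 55.3 and 53.2.

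Promoter islands also ranked higher within the kd list than within the control list. SICER gives each island a p-value, and its rank (100 for the lowest p) is relative to the other islands of the same list, so it also moves when weak islands are added. TSS islands with less than 50% repeat-masked bases had a median rank of 37.8 in control and 59.1 in kd. Intergenic islands that were mostly repeat had 55.3 and 53.2. Among islands found in both lists, the median -log10 p at a TSS was 13.4 in control and 23.2 in kd, whereas between genes it was 17.4 and 17.2, at a median rank of 60.0 and 64.9. The median p-value was thus lower in kd at promoters and about the same between genes.

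Most islands lay on repetitive DNA. Of the control islands 78.9% and of the kd islands 73.9% consisted of repeat-masked sequence for at least 50% of their length, compared with 34.3% of all bases on these chromosomes. Between genes the share was 91.5% in control and 90.3% in kd, and at a TSS 28.4% and 22.2%. Islands of 5 to 8.5 kb formed a second mode of the width distribution of masked islands. Between genes there were 7555 of them in control and 7673 in kd, of which 96.2% and 97.3% were shared. They are named here by a run of 24 bases, since repeat families were not annotated. The most frequent 24-mers of the masked intergenic control islands of 5 to 8.5 kb and of the shorter ones are printed, and copies were counted on both strands.
24-mer of the 5 to 8.5 kb islands: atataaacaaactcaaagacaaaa
24-mer of the islands under 5 kb: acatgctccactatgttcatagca
The first lay in 5839 of 7277 such control islands (80.2%) and in 5992 of 7468 in kd (80.2%). It has 17756 exact copies on these chromosomes. Of these, 13774 (77.6%) lay in a control island and 13655 (76.9%) in a kd island, 12424 of them in both. The second lay in 36.8% of the shorter control islands and 35.1% of those in kd. In the islands of 5 to 8.5 kb the second was more frequent, at 75.7% in control and 76.2% in kd, so it does not mark the shorter ones. It was more widespread, with 34222 copies, of which 47.8% lay in a control island and 52.6% in a kd island. A large part of the intergenic islands of both lists thus held the same short sequence. The authors kept uniquely mapped reads, and how reads from near-identical copies were placed was not tested.

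**Figure D2:**
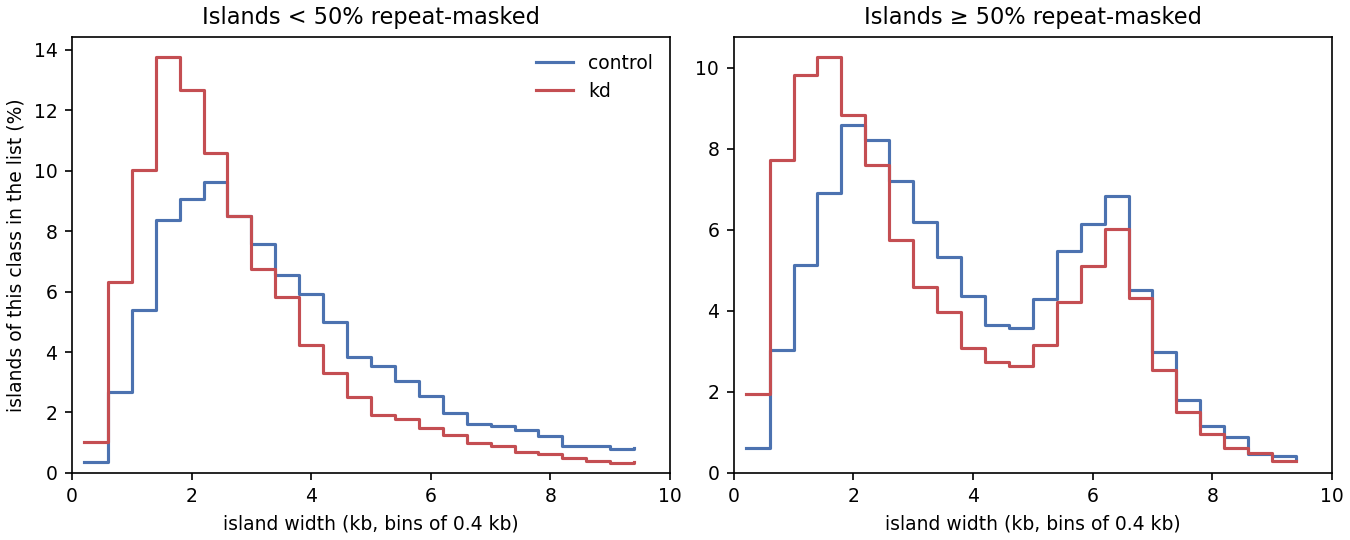
Share of islands (%) by width in equal bins of width, for islands with less than 50% repeat-masked bases (left) and the remaining islands (right), in control (blue) and Smarcb1 kd (red). Both lists have a second mode between 5 and 8.5 kb among masked islands, and kd has the larger share of islands under 1800 bp in either panel.

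Width was compared for islands that matched one to one. There were 24486 such pairs, and in another 1862 places 1 control island faced several kd islands, whereas 1321 places showed the reverse. At a TSS the median width was 3800 bp in control and 3600 bp in kd, a median log2 ratio of -0.043 (interval -0.058 to 0, quartiles -0.44 and 0.23). Masked islands had a median ratio of 0 at every location. Islands with less repeat were narrower in kd, with a median log2 ratio of -0.082 at a TSS, -0.28 in gene bodies and -0.32 between genes. Width and strength went different ways at promoters. Of the 3112 matched TSS islands, 75.1% had the lower p-value in kd, compared with 54.4% between genes. Among islands with little repeat the shares were 81.0% and 59.2%. The islands of kd alone were short. Their median was 2000 bp at a TSS, 1400 bp in gene bodies and 1600 bp between genes, and islands of control alone measured 2400, 2000 and 2200 bp.

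The largest changes in width at promoters reached beyond 3-fold in both directions. Among matched islands of at least 2 kb in both lists, that of Tbce, a chaperone of tubulin, measured 2000 bp in control and 9600 bp in kd. The island of Sox12, a transcription factor of the SoxC group, measured 2000 and 8400 bp, and that of Hat1, an acetyltransferase of newly made histone H4, 2600 and 10000 bp. In the other direction, the island of Diaph1, an actin nucleator, measured 9800 bp in control and 2800 bp in kd. That of Adam17, a protease that sheds surface proteins, measured 7600 and 2200 bp, and that of Nmd3, an export factor of the large ribosomal subunit, 7200 and 2200 bp. Some of the widest islands were shared. At Tet2, which oxidises 5-methylcytosine, 1 control island of 47 kb faced 3 kd islands that summed to 44.8 kb, and at Cdh1, the gene of E-cadherin, 39.6 kb faced 3 islands of 37.4 kb. Both lists held an island over Senp3 on chromosome 11, of 49 kb in control and 48.2 kb in kd. Others had no counterpart. The widest control island ran over 142.8 kb (chr8:20014801-20157600) with a -log10 p of 6.91, and no kd island touched it. In kd, islands of 41.8 kb (chr6:47737201-47779000) and 40 kb (chr6:47647001-47687000) lay between the genes Ezh2 and Pdia4 where control had none.

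Counted by gene, in control 3500 promoters (16.1%) overlapped an island and in kd 6783 (31.2%). The interval of the gained share was 16.4 to 17.4%, and that of the lost share 1.68 to 2.04%. Another 3098 promoters kept their island (14.2%), and 14570 had none in either list. Neighbouring promoters can share an island, and 3168 kd islands lay over the gained promoters and 367 control islands over the lost ones. Of the gained promoters 3205 had no control island within 5 kb, and the nearest one was 25.4 kb away at the median. Of the lost promoters 276 had no kd island within 5 kb. When starts of all transcripts were counted, 205 of the gained and 41 of the lost genes had an island at some start in both lists. Kept promoters had a median -log10 p of 12.1 in control and 24.9 in kd, and a median rank of 40.3 and 78.2, and 80.1% of them had the lower p-value in kd. Lost promoters came from the weak end of the control list, with a median rank of 25.03, whereas gained promoters stood at 46.3 in the kd list.

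The gained promoters with the strongest islands included genes of DNA replication, RNA processing and signalling. Cdt1, which licenses replication origins, lay in a kd island of 19.8 kb with a -log10 p of 235, and the nearest control island was 37.6 kb away. Csrnp1, a nuclear factor induced by Axin, had a kd island of 3000 bp (-log10 p 107, as for all bracketed values that follow a gene or a width) and Plekha7, a protein of adherens junctions, one of 11200 bp (101). Tbl1x, a subunit of NCoR corepressor complexes, had one of 2600 bp (82.8) with no control island within 106.8 kb. Osm, the gene of the cytokine oncostatin M, lay at the edge of a kd island of 17000 bp (130) between Osm and Lif, and a control island began 5.18 kb from its TSS. Lsm4, a component of the U6 snRNP (79.5), lay on chromosome 8 as did Cdt1. Mpdu1, required for the use of dolichol-linked mannose (85.9), and 4930519P11Rik (76.0) also belonged to this group. The strongest of all, the 27.2 kb island at Trim28, whose product represses retroelements with KRAB zinc finger proteins, counts as gained only at the outermost annotated start. Another start of Trim28 had an island in both lists.

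Among the lost promoters the lowest p-value belonged to Cobl, an actin nucleator of neurons and epithelia, whose control island measured 12.2 kb (-log10 p 83.7). The nearest kd island was 17.8 kb away, and an H3K27me3 region was called at this promoter in kd but not in control. Over all lost promoters H3K27me3 was called at 17.2% in control and 15.9% in kd. Lpar6, a receptor for lysophosphatidic acid, lost an island of 4600 bp (51.6). The start of Mme, a membrane metallopeptidase, lost an island of 6800 bp (58.3), but another start of this gene kept one. Of the 10 strongest losses, Gm16503, Zfp985, Zfp980 and Zfp978 lay in a cluster of zinc finger genes on chromosome 4. Over 1.97 Mb this cluster holds 17 protein-coding genes, of which 7 lost, 7 kept and 2 gained a promoter island. Of these genes 13 are named as zinc finger genes, a family of related copies, and how reads were placed among them was not tested, so these losses are uncertain. Gm31371 on chromosome 8 and 5730480H06Rik on chromosome 5 were also among the 10.

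Promoter sequence differed between these groups. Gained promoters had a median of 21 CpG in such a window, kept promoters 21, lost promoters 14 and promoters without an island 6, against 11 over all 21755. Of promoters without a control island, 4.42% gained one where the ratio of observed to expected CpG over 2 kb was below 0.3, 19.9% between 0.3 and 0.6, and 42.4% at 0.6 or more. Losses ran the other way, with 34.4% of the promoters with a control island in the lowest class and 6.21% in the highest. Motifs were searched on both strands of the 300 bases, and a promoter was counted once however many matches it held. The GC box GGGCGG occurred in 62.4% of gained, 61.4% of kept, 46.5% of lost and 43.4% of all promoters. This motif contains a CpG, so its share moves with CpG content. The motif of NRF1, a regulator of housekeeping genes, was in 11.1% of gained, 11.98% of kept, 7.21% of lost and 6.04% of all promoters. The octamer ATGCAAAT occurred in 1.17% of gained and 3.23% of lost promoters, 13 in number, and in 1.59% of all. CCAAT was found in 37.2% of gained and 46.0% of lost promoters, and in 38.9% of all.

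Gains were unevenly spread over the chromatin classes of control cells. H3K4me3, the mark of active and poised promoters, has by the labels the same background library as H3K27ac, whereas H3K27me3, the mark of PRC2, and Smarca4 had a background of their own. Of control-free promoters with H3K4me3 and without H3K27me3, 49.9% gained an island (48.5 to 51.3%). Where both marks were present, the bivalent state of many developmental genes, the share was 21.2% (20.0 to 22.5%). It was 4.93% with H3K27me3 alone and 3.36% with neither. With a Smarca4 peak in control 31.98% of free promoters gained an island and without one 4.10%. Of promoters with a control island, 8.81% with a Smarca4 peak in control lost their island and 37.8% without one. Regions of the other antibodies are given side by side. H3K27me3 covered 29.1% of the gained promoters in control and 20.7% in kd, and 43.0% and 36.9% of promoters without an H3K27ac island in either list. At lost promoters it covered 17.2% and 15.9%. Smarca4 was present at 91.4% of gained promoters in control and 93.9% in kd, and at 69.7% of lost promoters in both. H3K4me3 covered 90.5% and 93.2% of gained and 73.6% and 70.4% of lost promoters. Ezh2, the PRC2 methyltransferase, was called at 4.34% and 9.77% of gained promoters and at 9.44% and 15.9% of those without an H3K27ac island. H3K4me3 and Ezh2 share their background library with H3K27ac, so no overlap of their changes is given.

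Gene groups were described by their counts beside the share over all genes, 16.9% gained and 1.85% lost. The cells carried the marks of their label. Of 12 stem cell markers, 9 kept a promoter island, Lin28a gained one at its outermost start, and counted over all transcript starts all 12 had an island in both lists. None of 10 fibroblast markers and none of 10 trophoblast regulators had a promoter island in either condition. The same held for 15 regulators of mesoderm and endoderm, 39 Hox genes, 57 clustered protocadherins and 22 genes of the 2-cell stage. Absence was also the most common state over all genes, at 14570 of 21755 promoters. How reads were placed among any related copies in these lists was not tested.

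**Figure D3:**
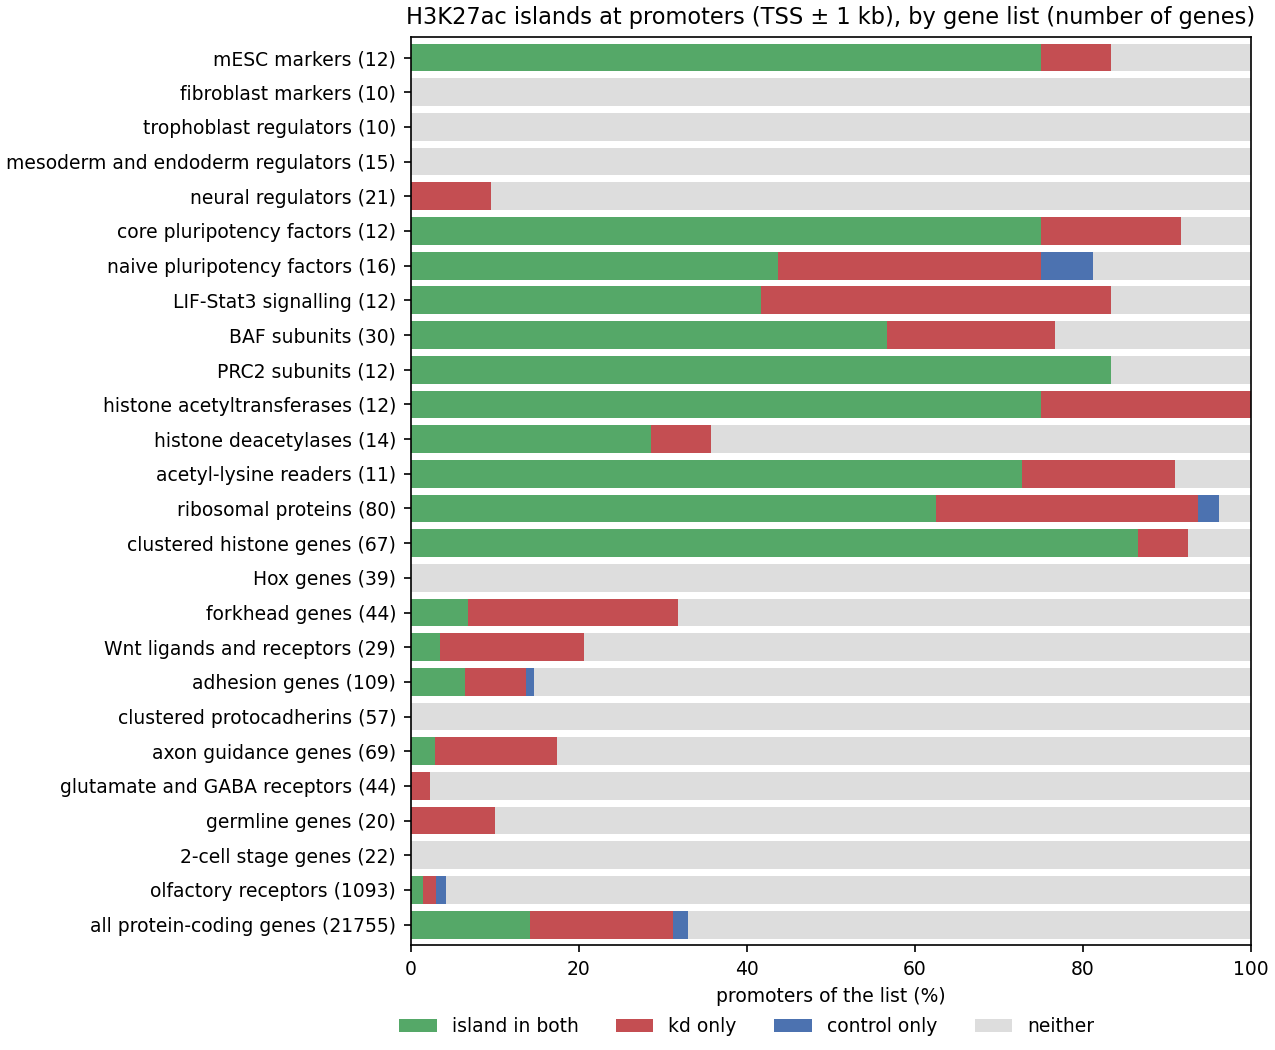
Share of promoters (%) of each gene list with an H3K27ac island in both conditions (green), in Smarcb1 kd alone (red), in control alone (blue) or in neither (grey), with the number of genes in brackets and all protein-coding genes at the bottom. Most genes of the core pluripotency, BAF, PRC2, acetyltransferase, reader, ribosomal protein and histone lists have an island in both conditions, and 6 lists of lineage, Hox, protocadherin and 2-cell genes hold no promoter island.

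In the core pluripotency circuit 9 of 12 promoters kept an island, of which 6 were narrower in kd, beside 1718 of the 3098 kept promoters of all genes. Width at a promoter is that of its island with the lowest p, so an island split in kd can count as narrower. Within 20 kb of the TSS, islands covered more bases in kd at 10 of the 12 genes and fewer at 2. Over all genes the counts were 10332 and 4377. Pou5f1, which with Sox2 and Nanog forms the centre of the circuit, had an island of 31600 bp (-log10 p 241) in control and of 24000 bp in kd, where p was deposited as 0. At Nanog the island measured 25600 bp (192) and 17200 bp (p of 0), and at Zfp42, a marker of the naive state, 20400 bp (165) and 16800 bp (p of 0). The Nanog control island also faced a kd island of 7.8 kb. Sall4, a zinc finger partner of Pou5f1, had 13600 bp (49.4) and 10000 bp (127). Sox2 was nearly unchanged, with 10800 bp (100) in control and 11400 bp (99.1) in kd. Utf1, a chromatin factor of stem cells, went from the weak end of the control list (5.93) to a -log10 p of 64.1. Of the 9 kept core promoters, 8 had the lower p in kd, beside 80.1% of all kept promoters.

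The naive factors and the LIF pathway included 10 gains. Of 16 naive factors, 7 kept, 5 gained and 1 lost an island. The gains were Klf4, Tfcp2l1, Tbx3, Gbx2 and Dppa3. The paper reports that expression of Klf4 and Tbx3 was significantly lower after the knockdown at every time point. Klf4, a target of Stat3, had a kd island of 4200 bp (29.5) over its TSS. A control island of 3.2 kb began 3.47 kb downstream of it and overlapped no kd island. At Tfcp2l1 (19.3) and Dppa3 (13.1) the kd islands measured 4800 and 4000 bp, and at Tbx3 (7.35) and Gbx2 (6.34) 2800 and 800 bp. Nr5a2, a nuclear receptor that activates Pou5f1, lost an island at its outermost start and kept one at another. Klf2 kept an island of 35400 bp (20.7) in control and 17400 bp (150) in kd. LIF sustains self-renewal through Stat3. Of 12 genes of this pathway, 5 kept and 5 gained an island, namely Lif itself (3000 bp, 38.1, with a control island 7.56 kb away), the feedback inhibitor Socs3 (4000 bp, 24.8, with a control island 1.35 kb from the TSS), the target Myc (3200 bp, 17.5), the kinase Pim3 (2200 bp, 31.8) and the kinase Jak2 (800 bp, 10.2). Junb, an AP-1 subunit, kept an island that went from 7200 bp (5.64) to 16800 bp (74.0). Stat3 kept an island of 4200 bp (6.98) in control and 1800 bp (12.1) in kd.

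Islands within 120 kb of 6 of these genes show where the new calls lay. At Sox2 the distal domain about 80 to 117 kb downstream was acetylated in both conditions, with islands of 14.8 and 16.8 kb in control, and 9.4 and 14.4 kb beside shorter ones in kd. A kd island of 2 kb stood 17 kb downstream (chr3:34667401-34669400, -log10 p 84.2) where control had none, and 2 others with little repeat, of 4.2 and 2 kb, lay between this one and the distal domain. Lif had 4 islands in control and 13 in kd within this distance. The control island of 8.4 kb upstream of its TSS (56.9) corresponded to the one of 17 kb in kd (130) that also reached Osm. Of the Lif islands, 2 in control and 10 in kd had less than 50% repeat-masked bases, and these summed to 9.2 and 39 kb. Nanog had 11 and 24 islands, of which the 8 and 13 with less than 50% repeat-masked bases summed to 69.8 and 97 kb. The control island of 25.6 kb over its TSS was 50.5% masked and is not in this sum. The kd island of 17.2 kb there was 48.5% masked and is in it. Pou5f1 had 3 and 10 islands, of which the 2 and 3 with less than 50% repeat-masked bases summed to 36 and 28.2 kb. The control island of 31.6 kb faced kd islands of 5.6 and 24 kb. The one of 5.6 kb was 53.2% masked and is not in this sum. The gene-level start of Esrrb lay 103.7 kb from its acetylated region, in which 1 control island of 19.6 kb (41.8) faced 2 kd islands of 9.6 kb (94.5) and 7.4 kb (77.1). The domain 49 to 78 kb downstream of Klf4 was present in both lists, as 4 islands in control and 2 in kd.

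**Figure D4:**
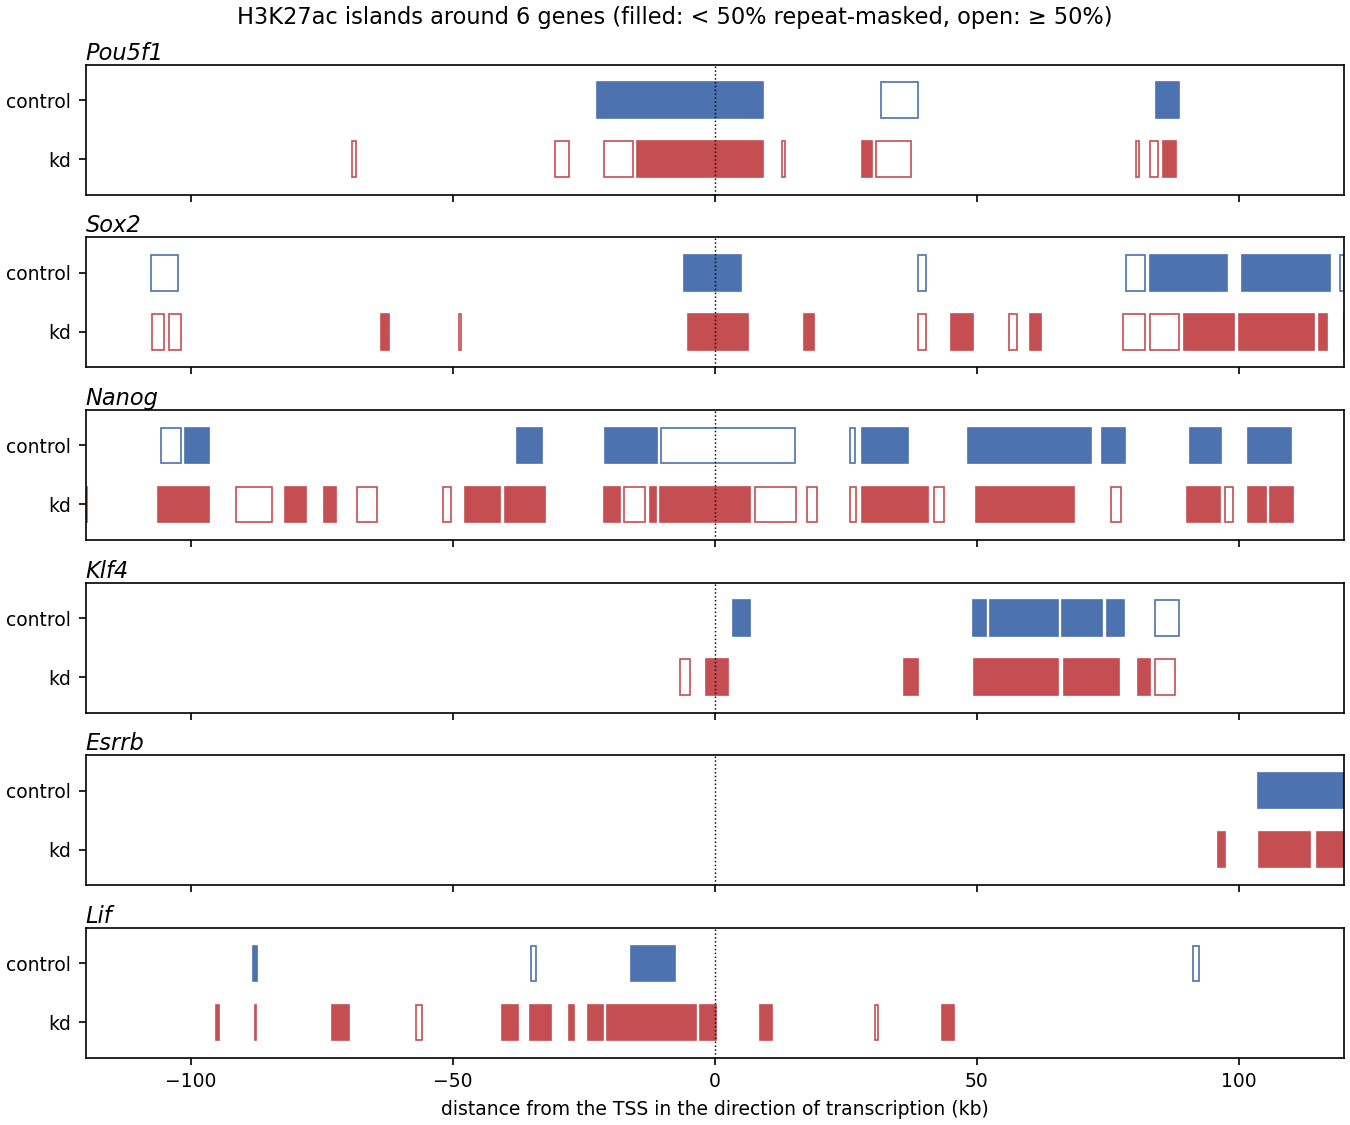
H3K27ac islands in control (blue) and Smarcb1 kd (red) around Pou5f1, Sox2, Nanog, Klf4, Esrrb and Lif, by distance from the TSS (dotted line) in kb in the direction of transcription, cut at 120 kb. Filled boxes have less than 50% repeat-masked bases and open boxes at least 50%. The main control domains recur in kd, and islands of kd alone stand around Lif and between Sox2 and its distal domain.

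Most genes of the BAF, PRC2 and acetyltransferase lists had a promoter island in both conditions, unlike the deacetylases. Over all kept promoters 80.1% had the lower p in kd, and the counts of the lists are to be read beside this share. Smarcb1, the target of the shRNA, kept a promoter island, of 3600 bp (5.27) in control and 800 bp (9.16) in kd. The shRNA acts on the transcript, so this is no check of the knockdown. Of 30 BAF subunit genes 17 kept an island, all 17 with the lower p in kd, none lost one, and 6 gained one. The 6 were Smarcd1 (29.1), Smarcd2 (25.9), Smarcc1 (24.99), Smarcc2 (18.2), Brd9 (13.0) and Bcl7c (5.63), of which Smarcc1 had an island at another start in control. Arid1a, the subunit that defines canonical BAF, had 7800 bp (31.1) in control and 11000 bp (165) in kd, and the ATPase gene Smarca4 7800 bp (23.5) and 7600 bp (74.7). Of 12 PRC2 genes 10 kept their island, each with the lower p in kd, among them Suz12 with 15400 bp (76.1) and 31000 bp (p of 0), Jarid2 with 20200 bp (166) and 22400 bp (p of 0) and Ezh2 with 2800 bp (13.0) and 2600 bp (36.4). All 12 acetyltransferase genes had a promoter island in kd and 9 in control. Ep300 went from 24.7 to 48.4 and Crebbp from 10.3 to 31.8 in -log10 p, and the new ones were Kat5, Kat6a and, at its outermost start, Ncoa1. Of 14 deacetylases 4 kept and Sirt6 gained an island. Among 11 readers of acetyl-lysine 8 kept an island, 5 of them with the lower p in kd. Bptf, a subunit of the NURF remodeller, was among the other kept ones, with 16600 bp (82.8) in control and 5800 bp (61.8) in kd.

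Of 80 ribosomal protein genes 25 (31.2%, against 16.9% of all promoters) gained an island, 50 kept one and 2 lost one, namely Rpl15 and, at its outermost start, Rps14. Of the 50 kept, 43 had the lower p in kd, a share near the 80.1% of all kept promoters. Clustered histone genes had an island in both conditions in 58 of 67 cases. Of these, 28 had the lower p in kd, 46 were narrower and 12 wider, whereas over all kept promoters 1718 were narrower and 1188 wider. Many of the histone genes share an island, so these counts are of genes and not of separate islands. A control island of 23000 bp, for example, counts for several genes and faced kd islands of 14800 and 6000 bp. Of 44 forkhead genes 11 (25%) gained an island, among them Foxp4 (35.2), Foxh1 (30.4), the Nodal signalling partner of Smads, and Foxo3 (25.2), and 3 kept one. Of 29 Wnt ligands and receptors 5 gained an island (17.2%, near the share of all promoters), namely the Frizzled receptors Fzd2 (34.0), Fzd6 (18.4), Fzd10 (15.8) and Fzd7 (11.3) and the ligand Wnt9a (6.16). Axon guidance genes gained 10 of 69 (14.5%), with Epha2 (29.9), an ephrin receptor, and Plxna1 (14.9), a semaphorin receptor, the lowest in p. Adhesion genes gained 8 of 109 (7.34%), among them the laminin chain Lama5 (41.4) and the integrin Itga5 (18.2), and lost Cdh3 at a weak control island (5.13). Cdh1 kept its island, of 39600 bp (22.4) in control and 22200 bp (130) in kd. Grik5 was the single gain among 44 receptors for glutamate and GABA, and Sox1 (18.4) and Zic2 (10.8) were the gains among 21 neural regulators. Germline genes gained Sycp3 (6.73) and Tex11 (10.8) of 20. Olfactory receptor genes, which act in sensory neurons and lie in large clusters of related copies, showed 17 gains (1.56%), 16 kept and 13 losses (1.19%) of 1093, and 7 of the 16 kept had the lower p in kd.

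Away from promoters, islands with a Smarca4 peak were found in both conditions more often than those without, except among weak, mostly repeat islands of kd. Of control islands outside TSS with less than 50% repeat-masked bases, 68.6% with a Smarca4 peak in control (66.7 to 70.4%) and 37.4% without one (35.6 to 39.4%) overlapped a kd island. Islands with Smarca4 were wider, at a median of 4000 bp against 2200 bp, and a wide island overlaps another more easily. The part of width in these shares was not tested. Of the kd islands of this kind, 51.0% with and 27.5% without a Smarca4 peak overlapped a control island. Among mostly repeat islands the shares were 93.9% and 77.0% in control and 87.5% and 63.6% in kd, but 46.0% and 48.3% among the kd ones that ranked below their median. For matched pairs outside TSS with little repeat, the median log2 width ratio was -0.26 with Smarca4 and -0.36 without. The intervals, -0.32 to -0.21 and -0.42 to -0.26, overlapped. For mostly repeat pairs the median ratio was 0 with and without Smarca4. Distal islands of kd alone, of at least 1 kb and with little repeat, were richer in G and C than those of control alone, with a median of 46.1% and 40.5% in their central 1 kb. There GGGCGG was present in 23.4% and 9.55%, and in 18.8% of all such islands in both lists. The AP-1 site TGANTCA was present in 25.7% and 28.6%, and in 26.0% of all. The 6 strongest distal islands of kd alone lay nearest to C77080, Ptma, Gse1, Ptpn1, Sox2 and Sh3bgrl3, between 4.19 and 103.5 kb from the TSS. The 6 strongest of control alone lay farther out, between 81.7 kb (Cldn34a) and 1939 kb (Hace1) from the nearest TSS, and 3 of them were on the X chromosome.

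Chromosomes differed in the share of promoters that gained an island. On chromosome 8, 320 of 886 free promoters (36.1%, 33.0 to 39.3%) gained one, compared with 19.4% on all others (18.8 to 20.0%). The next highest shares were 26.3% on chromosome 11 and 23.5% on chromosome 17, and the lowest was 8.31% on the X chromosome. Losses on chromosome 8 amounted to 9.74% of promoters with a control island, against 11.6% elsewhere. The longest run of neighbouring gains, 10 genes from Tmem161a to Upf1 over 181 kb and 8 islands, also lay there, and 3 of the 10 gained promoters with the lowest p were on this chromosome. The number of H3K27ac islands on chromosome 8 did not stand out, with 1.34 times as many in kd against 1.31 times elsewhere. Of the other antibodies, H3K27me3 had 1.26 times as many regions in kd on chromosome 8 and 0.777 times elsewhere, H3K4me3 1.29 and 1.28, Smarca4 0.847 and 0.918, and Ezh2 0.563 and 0.822.

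**Figure D5:**
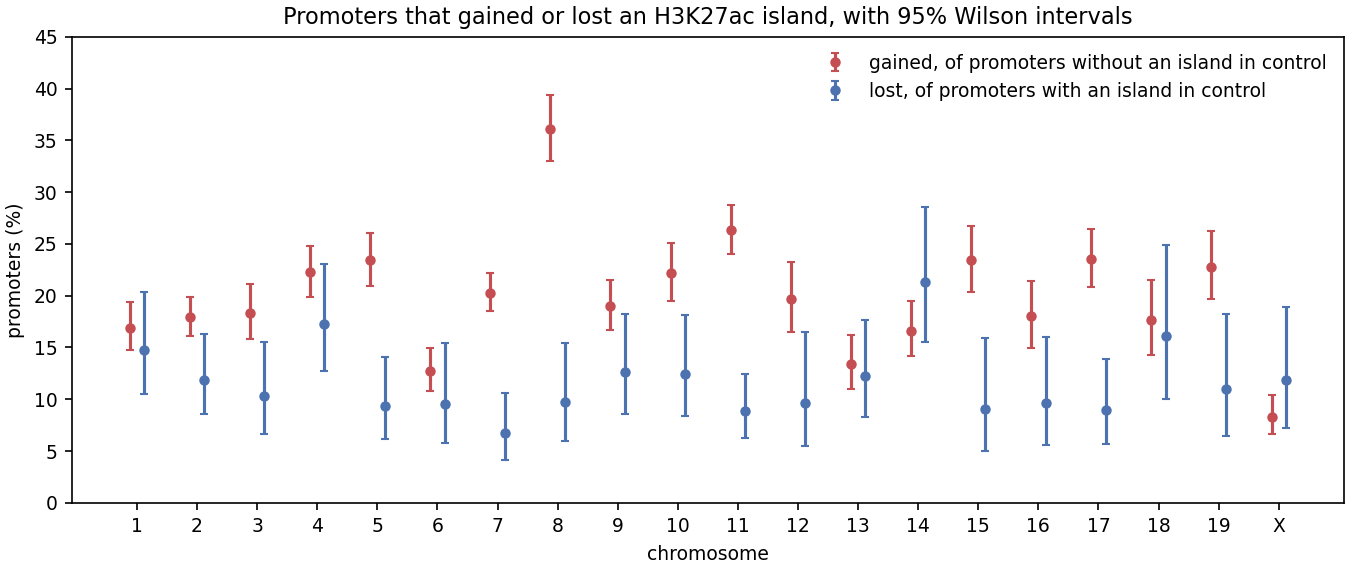
Share (%) of promoters without a control island that gained one in Smarcb1 kd (red) and of promoters with a control island that lost it (blue), by chromosome, with 95% Wilson intervals. Chromosome 8 reaches 36.1% gained and the X chromosome 8.31%.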

How the data were processed

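H3K27ac, H3K4me3, H3K27me3, Smarca4 and Ezh2 were measured by ChIP-seq in 1 library per condition. The authors trimmed reads with Trim Galore, aligned them to mm10 with Bowtie2, kept uniquely mapped reads with few mismatches by SAMtools 1.9, and called regions against the input library of the condition. For histone marks the authors used SICER with 200 bp windows and gaps of 600 bp and deposited a p-value per island, which for H3K27ac is below 1e-05 throughout. The p-value was deposited as 0 in 9 control and 43 kd islands. For Smarca4 and Ezh2 they deposited MACS2 peaks with a score, of which only the positions were used. No list carries read counts or depths.

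From these lists, islands on chromosomes 1 to 19 and X were assigned to TSS ± 1 kb, then gene bodies, then intergenic DNA by GENCODE M21 on GRCm38, whereas the study used another release. Islands were shared with at least 1 bp of overlap. Repeat content is the soft-masked share of bases. A rank is the percentile of an island's p-value in its own list. Python 3.11.15, numpy 2.4.6, pandas 2.3.3, scipy 1.17.1 and matplotlib 3.10.9 were used, and the code was tested on simulated islands. With 1 library per condition no test was run. Intervals cover counting error only, and for median ratios they treat islands as independent.

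Named were the 10 gained and 10 lost promoters with the lowest p and no island of the other condition within 5 kb, 1 gene per island, the 5 most widened and 5 most narrowed matched promoter islands of at least 2 kb, the genes nearest to the 5 widest islands with little repeat in each list, members of lists of up to 30 genes, and Smarcb1. Some genes that this rule names are not reported here. Members of longer lists, the zinc finger cluster, the loci drawn, the runs of gained genes and the strongest distal islands were chosen after their values were seen. The members and all gene lists were chosen with earlier results of these data known. Alternatives were stricter p-values, equal list lengths, other promoter windows and gene sets, other overlaps, islands with little repeat, and chromosomes without 8 and X.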

Additional observations from a re-analysis of the deposited data

Results flagged for a closer look

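The Y chromosome lay outside the chromosomes compared, and its islands are listed because they are signal in data that no comparison uses. There were 400 islands in kd and 354 in control, covering 1.56 and 1.39 Mb at a median width of 3600 and 3700 bp.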

How the results depend on the processing

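No alternative reversed the sign of the log2 ratio of gained to lost promoters or of the median width ratio at a TSS. In gene bodies and between genes the main median log2 width ratio was 0, so it had no direction to reverse. For the main values, 37 alternatives stayed close to those given and the following moved. When a gain or loss needed an island of p at most 1e-10 and absence at the deposited limit, 2273 promoters gained and 172 lost an island. With equal list lengths 606 were lost, and with all annotated genes 999. The share of islands at a TSS in control and kd was 10.5% and 17.7% at p of at most 1e-10, 40.0% and 47.2% for islands with less than 50% repeat-masked bases, 12.5% and 16.4% without chromosomes 8 and X, and 7.75% and 11.6% for protein-coding genes only. It was 17.1% in kd at equal list lengths. The median log2 width ratio of matched islands, with masked islands left out of both lists first, was -0.087 at a TSS, -0.15 in gene bodies and -0.17 between genes. The log2 ratio of gained to lost promoters ran from 2.22 to 3.72. Of 273 named promoters 30 changed state at p of at most 1e-10, and between 4 and 10 under each of the other settings that concern promoters. The shared part of the lists was less stable, from 64.9 to 89.8% of control TSS islands, from 37.3 to 55.1% of kd TSS islands, and from 41.0 to 78.6% of control intergenic islands. It ran from 35.1 to 73.8% of kd intergenic islands. In gene bodies it ran from 43.4 to 71.3% in control and from 33.5 to 60.4% in kd. The cause was not tested.

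No paired analysis was possible because each condition has 1 library and the labels give no replicate numbers. For the same reason no replicate was left out. A region without an island is not shown to lack acetylation, since the lists hold no depth.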
